A study of Mus musculus with 16 samples.

Results

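Spared nerve injury (SNI) given alone was set against desipramine (DMI) given alone in the dorsal root ganglia (DRGs) of mice: 4 SNI-Saline libraries and 4 Sham-DMI libraries, 8 of the 16 in the series. The rule took all genes of the count files, 52636 in all, and 21371 of them passed the filter on low counts and were tested. SNI-Saline mice had the common peroneal and sural branches of the left sciatic nerve ligated and cut with the tibial branch spared, and received saline. Sham-DMI mice had sham surgery and received DMI, a tricyclic antidepressant, at 15 mg/kg i.p. 2 times daily for 3 weeks. All were male C57Bl6/J mice of 3 to 4 months, each library held the L3 to L6 DRGs of 1 mouse, and the labels start treatment 4 weeks after surgery, whereas the methods section gives months in place of weeks. The other 8 libraries, Sham-Saline and SNI-DMI, belong to the same design and are used where named.

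The 2 groups differ in surgery and in drug, so each log2 fold change is the effect of injury minus the effect of DMI. SNI-DMI versus Sham-Saline shares no library with it. There, if the effects of injury and DMI add, a difference that goes only with injury keeps its sign. A difference that goes only with DMI then turns its sign. Where a gene moves with both, or where the effects do not add, the sign can go either way. In the labels, library numbers 17 to 24 are all DMI and 33 to 40 all saline, so DMI cannot be told apart from whatever those numbers stand for.

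DRGs hold the cell bodies of the sensory neurons that run in the peripheral nerve, wrapped by satellite glia and accompanied by Schwann cells, macrophages, vessels and connective tissue. When the axon of such a neuron is cut, the cell body switches on a program of transcription factors, neuropeptides, receptors and axon growth genes, with Atf3 as its best known member, and macrophages gather around it. DMI blocks the noradrenaline transporter and is used against neuropathic pain. A bulk library mixes cut and spared neurons with all other cells, so more cells of a type and more RNA per cell cannot be told apart.

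Reads counted on genes ran from 54975901 to 65119126 per library in SNI-Saline and from 41194238 to 73920332 in Sham-DMI, so that the range of Sham-DMI enclosed that of SNI-Saline. Levels are CPM, the reads of a gene scaled to a common library total with edgeR's TMM factors. The labels name the tissue spinal cord and the cell type DRG. The sensory neuron sodium channel Scn10a stood at 1057 to 1302 CPM over the 8 libraries, and 3 of 6 listed spinal cord markers, Chat, Olig2 and Opalin, did not exceed 0.0919, 0.29 and 0.168 CPM in any of the 16 libraries. The 3 others, Mog, Mobp and Aqp4, summed to 15.2 to 35.7 CPM in SNI-Saline and 14.4 to 22.7 CPM in Sham-DMI, with a median log2 fold change of 0.70 and none called. In SNI-DMI versus Sham-Saline all 3 were negative (median -0.35) and 2 were called lower. Olig1, an oligodendrocyte gene outside this list added after its values were seen, was called higher in SNI-Saline than in Sham-DMI (2.33, adjusted p = 0.0479 by edgeR). Libraries that stood apart within their group were Sham-DMI replicates 2 and 4, with axotomy genes above the other 2 Sham-DMI mice, and SNI-Saline replicate 2, with a summed level of 6 skeletal muscle genes of 77.2 CPM against a Sham-DMI maximum of 4.77 CPM and the highest macrophage, neutrophil and red cell sums of its group. In the other groups SNI-DMI replicate 2 stood at 275.1 CPM of the muscle genes and Sham-Saline replicate 1 at 49.1 CPM. The part of neighbouring tissue in these libraries was not tested. Counts over most immune lists are given with all libraries, without SNI-Saline replicate 2 and without both Sham-DMI 2 and 4. They are not given without SNI-DMI replicate 2 or Sham-Saline replicate 1. Calls of several single genes named below were lost without SNI-Saline replicate 2.

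Genes were higher after injury alone far more often than lower. At an adjusted p under 0.1, and differing by 0.32 or more on the log2 scale (edgeR's quasi-likelihood test, Benjamini-Hochberg adjustment over all tested genes), 321 genes (1.50% of those tested) were higher and 17 (0.0795%) were lower in SNI-Saline than in Sham-DMI, while the median log2 fold change of all tested genes was -0.0012. Of the 338, 305 were protein-coding and 324 had no overlap between the 8 libraries. Over all tested genes, 4.70% were higher and 2.77% lower without overlap. The median log2 fold change was 0.965 among the called higher genes and -0.543 among the called lower genes. Set side by side with the Sham-Saline group, which both comparisons share, the median of the called higher genes was 0.509 in SNI-Saline versus Sham-Saline and -0.415 in Sham-DMI versus Sham-Saline. That of the called lower genes was -0.337 and 0.392. Below, rose and fell mean called higher or lower in SNI-Saline than in Sham-DMI. They do not say which of these groups differed from Sham-Saline.

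The number of calls depended on single mice. Leaving out SNI-Saline replicate 2 left 85 calls and leaving out replicate 1 left 225. Leaving out Sham-DMI replicate 1 or 3 left 104 or 109. There were 253 to 434 when any of the other 12 libraries was left out. Without both Sham-DMI 2 and 4 there were 133 calls, and without both SNI-Saline 2 and 4 there were 57, settings chosen after seeing the data. DESeq2 on all 16 libraries called 681 genes, 602 higher and 79 lower, among them 329 of the 338.

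In SNI-DMI versus Sham-Saline, where 7.85% of all tested genes were called higher and 10% lower, 104 of the 338 genes had the same sign at a nominal p under 0.05, 33 had the opposite sign and 201 did not pass. Over all tested genes 12.3% had the same sign and 26.7% the opposite sign at that p, against 30.8% and 9.76% of the called genes. All 104 genes with the same sign were higher with injury, and none was lower in both. The 33 with the opposite sign comprised 26 higher and 7 lower genes. The same-sign and opposite-sign counts were 40 and 5 once SNI-Saline replicate 2 was left out, 50 and 5 for Sham-DMI replicate 1, 51 and 8 for Sham-DMI replicate 3, and 160 and 31 for SNI-DMI replicate 2. The opposite-sign count was 69 without Sham-DMI replicate 2 and 16 to 21 without SNI-Saline replicate 1 or 3, Sham-Saline replicate 2, 3 or 4 or SNI-DMI replicate 3.

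**Figure D1:**
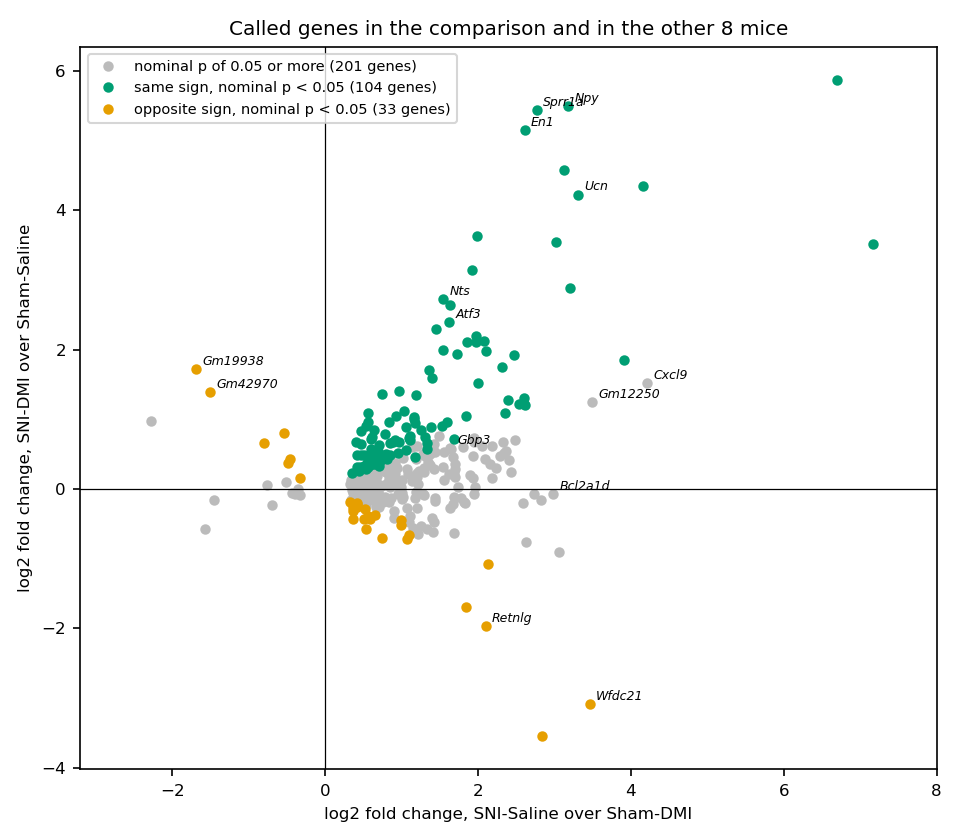
Each point is 1 of the 338 genes called in SNI-Saline versus Sham-DMI. The x axis gives its log2 fold change there and the y axis its log2 fold change in SNI-DMI versus Sham-Saline, which uses other mice. Colours give the sign and nominal p in the latter (104 same sign, 33 opposite sign, 201 neither). The same-sign genes lie in the upper right and hold Sprr1a, Npy and Ucn. Retnlg and Wfdc21 lie in the lower right. Points of genes with almost no reads in a group are fitted values and set no bound.

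Of the 12 protein-coding genes with the smallest p, 6 were listed axotomy genes: Ucn, Gpr151, Ecel1, Atf3, Nts and Cckbr. Each was higher in every SNI-Saline mouse than in any Sham-DMI mouse. Of the 8 listed transcription factors of cut sensory neurons, 2 rose (Atf3 and Jun), with a list median log2 fold change of 0.16. Of the 9 tested neuropeptides and ligands, 4 rose (Npy, Nts, Ucn and Csf1) with a median of 0.86, and of the 10 receptors and growth genes, 6 rose (Ecel1, Cckbr, Gpr151, Sprr1a, Flrt3 and Stmn4) with a median of 0.60. Flrt3, Stmn4 and Gal below were chosen after their values were seen. These 12 genes were also higher in SNI-DMI than in Sham-Saline at a nominal p under 0.05.

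Atf3, a stress-induced transcription factor of the ATF/CREB family on chromosome 1 (191170296 to 191218039, GRCm38), stood at 50.9, 51.5, 52.5 and 54.6 CPM in the 4 SNI-Saline mice and at 11.4, 20.6, 13.7 and 21.9 CPM in the 4 Sham-DMI mice. Sham-Saline held 7.44 to 12.1 CPM and SNI-DMI 36.9 to 78.9 CPM. The SNI-Saline mice lay within a narrow band, and Sham-DMI 2 and 4 lay above all Sham-Saline mice. The log2 fold change was 1.62 ± 0.22 (SE; adjusted p = 0.00242), and 2.39 ± 0.22 (adjusted p = 8.94e-06) in SNI-DMI versus Sham-Saline. Jun, which pairs with ATF and FOS proteins, stood at 117, 117, 114 and 131 CPM against 102, 91.3, 99.7 and 81.3 CPM, a log2 fold change of 0.35 ± 0.082 (adjusted p = 0.0522). Its annotation overlaps the antisense gene Junos, and the call was lost without SNI-Saline replicate 1, 2 or 4 or Sham-DMI replicate 2, 3 or 4 (adjusted p up to 0.143).

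Sprr1a, a cornified envelope protein that cut sensory neurons produce during regrowth, differed among the Sham-DMI mice. It stood at 41.1, 45.2, 43.7 and 45.5 CPM after injury and at 1.81, 12.2, 1.67 and 9.19 CPM in Sham-DMI, with 0.619 to 2.06 CPM in Sham-Saline and 30.1 to 73.9 CPM in SNI-DMI. Sham-DMI replicates 2 and 4 held several times the level of replicates 1 and 3, and all 4 stayed below every injured mouse. The log2 fold change was 2.77 ± 0.45 (adjusted p = 0.00842), and it was 4.65 without Sham-DMI 2 and 4. Npy, neuropeptide Y, which large cut neurons begin to make, stood at 22.3, 23.8, 19.4 and 26.2 CPM against 0.512, 4.5, 1.5 and 3.34 CPM, again with Sham-DMI 2 and 4 the highest of their group. Its log2 fold change was 3.18 ± 0.50 (adjusted p = 0.00724). Sham-Saline replicate 2, at 1.55 CPM, lay above the other 3 Sham-Saline mice, which held at most 0.249 CPM.

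Nts, the precursor of neurotensin, stood at 73.3, 66, 62.8 and 82.2 CPM in SNI-Saline and at 18.4, 24.2, 15.8 and 38.7 CPM in Sham-DMI. Both groups lay above Sham-Saline, which held 8.62 to 12.1 CPM, and the 2 did not overlap. The log2 fold change was 1.54 ± 0.22 (adjusted p = 0.00352), beside 2.78 for SNI-Saline versus Sham-Saline and 1.24 for Sham-DMI versus Sham-Saline. Ucn, urocortin, a peptide related to corticotropin-releasing hormone, had the smallest adjusted p of all genes. It stood at 1.5, 1.45, 1.56 and 1.41 CPM (83 to 97 counts) against 0.0854, 0.275, 0.025 and 0.158 CPM (1 to 20 counts), a log2 fold change of 3.31 ± 0.37 (adjusted p = 0.00106). Csf1, the growth factor by which cut neurons act on macrophages and microglia, stood at 35.5, 38, 32.6 and 35.5 CPM against 25.1, 23.9, 25 and 21.8 CPM (log2 fold change 0.56 ± 0.11, adjusted p = 0.0296), and its call was lost without SNI-Saline replicate 2 (edgeR adjusted p = 0.114). Gal, the galanin precursor, overlapped between the groups at 37.3, 43.7, 24.1 and 25.4 and 37.2, 29.6, 25.9 and 28.5 CPM, and its log2 fold change of 0.10 ± 0.20 did not pass (adjusted p = 0.851). Gal was nonetheless higher in SNI-DMI than in Sham-Saline (1.13 ± 0.20, adjusted p = 0.000473).

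Among receptors and enzymes, Ecel1, an endopeptidase induced by nerve damage, stood at 14.4, 18.7, 19.1 and 15.1 CPM against 3.79, 6.29, 2.85 and 4.65 CPM (log2 fold change 1.92 ± 0.24, adjusted p = 0.0018). Cckbr, the receptor of cholecystokinin and gastrin, stood at 6.72, 7.69, 6.07 and 6.48 CPM against 1.06, 2.18, 0.674 and 2.74 CPM (1.98 ± 0.29, adjusted p = 0.00375). Gpr151, an orphan receptor of sensory and habenular neurons, stood at 6.72, 7.41, 6.96 and 7.98 CPM against 1.52, 2.5, 1.57 and 2.38 CPM (1.85 ± 0.23, adjusted p = 0.0018). In none of these genes did the groups overlap, and for each the lowest 2 of the Sham-DMI mice were replicates 1 and 3. Flrt3, an adhesion protein, and Stmn4, a tubulin-binding stathmin, rose by 0.64 ± 0.13 and 0.56 ± 0.12 on the log2 scale (adjusted p = 0.0302 and 0.0368), and the call of Stmn4 was lost without SNI-Saline replicate 2 or Sham-DMI replicate 3 (adjusted p up to 0.121). Atf3, Sprr1a, Npy, Nts, Ucn, Ecel1, Cckbr and Gpr151 stayed called whichever of the 16 libraries was left out, and also without both Sham-DMI 2 and 4 or both SNI-Saline 2 and 4.

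**Figure D2:**
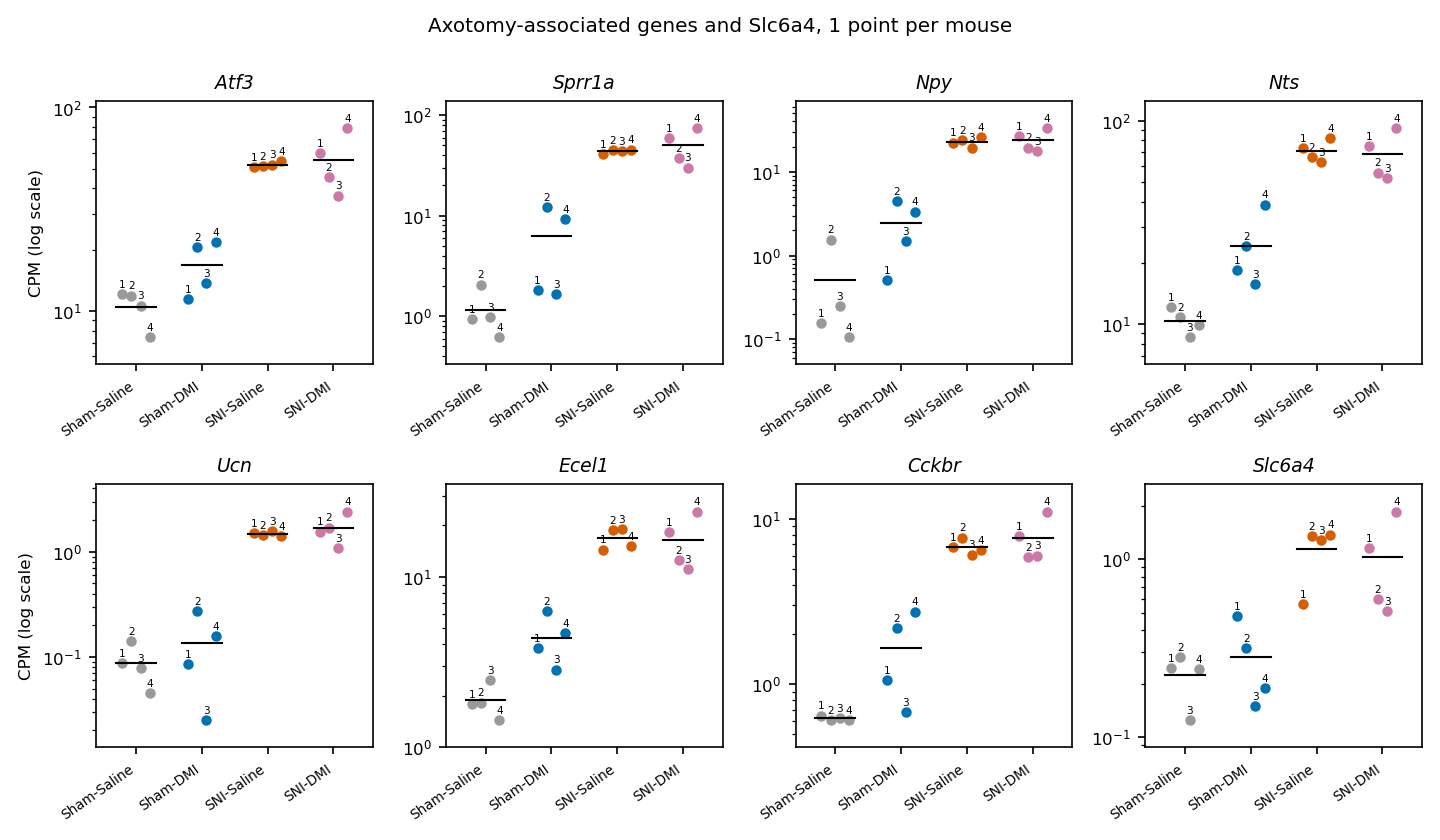
CPM on a log axis of 7 axotomy genes and Slc6a4 in the 4 groups, 1 point per mouse with its replicate number, and a bar at the group mean. All 4 SNI-Saline mice lie above all 4 Sham-DMI mice in each panel, and Sham-DMI mice 2 and 4 lie above mice 1 and 3 for Atf3, Sprr1a, Npy, Nts, Ucn, Ecel1 and Cckbr.

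The stretches just upstream of the start sites of 3 of these genes are shown because they hold the binding sequence of the factor families named above: the AP-1 sequence TGACTCA, bound by JUN and its partners, or the CRE sequence TGACGTCA, bound by ATF and CREB proteins (RefSeq promoters, build GRCm38.p6, each 5′ to 3′ on the gene's strand, matches on either strand in capitals). Bases inside the GENCODE gene were left out.
Sprr1a: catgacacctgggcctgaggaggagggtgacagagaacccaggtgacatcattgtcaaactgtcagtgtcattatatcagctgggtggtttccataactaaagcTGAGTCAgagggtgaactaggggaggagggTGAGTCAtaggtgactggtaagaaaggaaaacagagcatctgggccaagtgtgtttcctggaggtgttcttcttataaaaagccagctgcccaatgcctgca
Nts: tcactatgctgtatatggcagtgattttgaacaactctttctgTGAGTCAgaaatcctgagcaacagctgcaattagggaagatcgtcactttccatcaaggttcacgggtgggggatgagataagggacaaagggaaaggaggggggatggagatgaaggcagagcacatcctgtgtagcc
Ucn: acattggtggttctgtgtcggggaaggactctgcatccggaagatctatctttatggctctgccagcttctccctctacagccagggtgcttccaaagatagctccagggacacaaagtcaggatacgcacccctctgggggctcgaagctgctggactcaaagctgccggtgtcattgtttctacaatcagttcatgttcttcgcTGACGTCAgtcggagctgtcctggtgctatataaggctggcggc
They lie at chr3:92485896-92486131 for Sprr1a, chr10:102490487-102490668 for Nts and chr5:31138896-31139145 for Ucn, all on the minus strand. The Sprr1a matches begin 146 and 116 bases before the RefSeq start, the Nts match 207 and the Ucn match 44. The AP-1 sequence was found in 5.20% of all 32851 promoter windows of 250 bases before to 50 after a start, and in the windows of 31 of the 241 called higher genes that the table holds (12.9%, against 5.95% of all 27025 genes in it and 4.89% of the tested ones). The CRE sequence was found in 1.79% of all windows and in 2 of the 241 genes (0.83%, against 2.03% of all genes in the table and 3.16% of the tested ones). Atf3 and Jun themselves hold neither in these windows. Of the listed axotomy genes with a window, AP-1 was found in 0 of 6 transcription factors and 1 of 8 neuropeptides and ligands. It was also found in 1 of 6 receptors and growth genes. CRE was found in 0, 1 and 0 of them, so most of these genes held neither sequence. A match is a run of letters, not a measured binding site.

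The other genes among the 12 with the smallest p were Fst, Star, Txnip, Fgf3, Xdh and Slc30a3, and each stayed called whichever library was left out. Fst, follistatin, which binds activins, stood at 4.6, 4.48, 4.67 and 5.35 CPM in SNI-Saline against 1.98, 1.7, 2.2 and 1.45 CPM in Sham-DMI (log2 fold change 1.39 ± 0.19, adjusted p = 0.00242). Star, which carries cholesterol into mitochondria for steroid synthesis, stood at 15.7, 14.4, 14.4 and 15.4 against 8.18, 10, 7.29 and 9.33 CPM (0.78 ± 0.10, adjusted p = 0.00242). Fgf3, a secreted fibroblast growth factor, stood at 2.17, 2.23, 2.19 and 1.86 against 0.342, 0.686, 0.25 and 0.646 CPM (2.08 ± 0.30, adjusted p = 0.00352). These 3 separated the groups with no overlap and were higher in SNI-DMI than in Sham-Saline too, by 0.89 ± 0.18, 0.78 ± 0.10 and 2.12 ± 0.29. Xdh, xanthine dehydrogenase of purine breakdown, and Slc30a3, a vesicular zinc transporter, rose by 1.18 ± 0.17 and 4.15 ± 0.60 (adjusted p = 0.00352 and 0.00375). Slc30a3 rested on 19 to 40 counts per SNI-Saline library and 0 to 4 per Sham-DMI library. Txnip, an inhibitor of thioredoxin that responds to glucose, stood at 66.4, 65.2, 69.9 and 67.8 against 47.5, 51.9, 44.6 and 51.5 CPM (0.46 ± 0.063, adjusted p = 0.00264). In SNI-DMI versus Sham-Saline its log2 fold change was -0.027 ± 0.063. Side by side it was 0.26 in SNI-Saline and -0.20 in Sham-DMI, each against Sham-Saline, and the antisense gene Gm15441 overlaps it.

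Of 26 listed transporters, receptors and enzymes of the monoamines that DMI acts on, 1 rose and none fell, with a median log2 fold change of 0.086. The gene that rose was Slc6a4, the serotonin transporter. It stood at 0.562, 1.35, 1.28 and 1.38 CPM (31 to 90 counts) in SNI-Saline and 0.478, 0.316, 0.15 and 0.189 CPM (6 to 28 counts) in Sham-DMI, a log2 fold change of 1.98 ± 0.43 (adjusted p = 0.0415) and 2.19 ± 0.44 in SNI-DMI versus Sham-Saline (adjusted p = 0.00129). The lowest SNI-Saline mouse, replicate 1, lay just above the highest Sham-DMI mouse, and the call was lost without SNI-Saline replicate 2 or Sham-DMI replicate 3 (adjusted p up to 0.125). Slc6a2, the noradrenaline transporter that DMI blocks, was near the limit of detection, at 0.0544, 0.147, 0.257 and 0.0611 CPM against 0.0854, 0.11, 0.0999 and 0.126 CPM (3 to 16 counts per library), so that a difference was not detectable at this depth.

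Ion channels of the sensory neuron include a large family of potassium channels. Of the 86 tested potassium channel genes, 1 rose and none fell (median -0.058), beside 1.50% of all tested genes called higher. This was Kcnk16, a background potassium channel, at 1.18, 1.27, 1.93 and 2.58 CPM against 0.564, 0.768, 0.375 and 0.646 CPM (log2 fold change 1.54 ± 0.28, adjusted p = 0.0153, 1.99 ± 0.29 in SNI-DMI versus Sham-Saline). None of the 14 voltage-gated sodium channel genes and none of the 23 calcium channel genes was called by edgeR or by DESeq2, and 0 and 4 of them had a nominal p under 0.05. Over all 21371 tested genes, 3003 had a nominal p under 0.05 with upper-quartile scaling, a setting that also gave 338 calls. The nominal counts of this and later lists are to be read beside that number. None of the 12 nociceptor genes and of the 12 A-fibre and low-threshold neuron genes was called by edgeR, with 1 and 2 at a nominal p under 0.05. DESeq2 called 1 and 0 of them. Mrgprd, a receptor of non-peptidergic nociceptors and the nociceptor gene with the smallest p, stood at 129, 144, 158 and 134 CPM against 172, 199, 183 and 152 CPM (-0.32 ± 0.11, adjusted p = 0.181).

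Interferon-stimulated and antigen presentation genes formed another large group of higher genes. All 18 listed interferon response genes had a positive log2 fold change (median 0.83), and 6 rose. All 10 genes of MHC class I and the immunoproteasome were positive (median 0.86), and 6 rose. Of 16 tested interferon-inducible GTPases, a list added after seeing the values, 13 rose (median 1.70), and of 16 tested cytokines and chemokines 5 rose (median 0.62). In SNI-DMI versus Sham-Saline the medians were 0.51, 0.50, 0.61 and 0.39, with 7, 5, 1 and 3 genes called higher. Side by side, the medians were 0.40, 0.62, 1.03 and 0.39 in SNI-Saline versus Sham-Saline and -0.27, -0.20, -0.68 and -0.37 in Sham-DMI versus Sham-Saline.

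Mx1, a GTPase that blocks viral replication, stood at 3.57, 3.63, 1.99 and 3.22 CPM in SNI-Saline, 0.905, 0.974, 0.824 and 0.536 CPM in Sham-DMI, 1.24 to 2.0 CPM in Sham-Saline and 0.827 to 3.71 CPM in SNI-DMI. The first 2 groups did not overlap, Sham-Saline lay between them and touched the lowest SNI-Saline mouse, and the SNI-DMI mice were spread over the range of the other groups. The log2 fold change was 1.93 ± 0.37 (adjusted p = 0.0247), and 0.48 ± 0.35 in SNI-DMI versus Sham-Saline (adjusted p = 0.338). Rsad2, viperin, Ifit3, which recognises foreign RNA, and Xaf1, a promoter of apoptosis, rose by 0.90 ± 0.19, 0.97 ± 0.24 and 0.46 ± 0.12 (adjusted p = 0.0388, 0.0749 and 0.0854). Isg15, a ubiquitin-like modifier, stood at 12.9, 9.45, 8.96 and 8.42 against 5.57, 4.34, 5.54 and 5.46 CPM and did not pass (0.93 ± 0.26, adjusted p = 0.104).

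Guanylate-binding proteins, GTPases that attack vacuoles of pathogens, stood highest in SNI-Saline replicate 1. Gbp3 stood at 50.9, 29.8, 20.2 and 23.6 CPM against 11.1, 9.7, 8.67 and 10.1 CPM, with 14.1 to 17.5 CPM in Sham-Saline and 10.9 to 39.6 CPM in SNI-DMI. The Sham-DMI mice lay below all Sham-Saline mice, and all SNI-Saline mice above them. The log2 fold changes of Gbp3, Gbp5, Gbp6, Gbp7 and Gbp9 were 1.65 ± 0.33, 1.70 ± 0.38, 2.43 ± 0.52, 1.01 ± 0.22 and 1.74 ± 0.30 (adjusted p = 0.0296, 0.0479, 0.0382, 0.0422 and 0.0123). Members of this family are near-identical in part, and Gbp9 shares exon positions with Gbp4 and Gbp8, so counts may be split among them.

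The chemokines that attract T cells, Cxcl9 and Cxcl10, had large fold changes and wide spread. Cxcl10 stood at 25.7, 8.49, 5.48 and 8.21 CPM in SNI-Saline and 2.03, 2.22, 2.72 and 2.21 CPM in Sham-DMI (log2 fold change 2.39 ± 0.48, adjusted p = 0.0304), and Cxcl9 at 14.7, 7.26, 3.71 and 1.74 and 0.786, 0.316, 0.225 and 0.126 CPM (4.22 ± 0.89, adjusted p = 0.0377). Replicate 1 led SNI-Saline in both, and the groups did not overlap. Ccl8, a monocyte chemokine, and Tgfb1, transforming growth factor beta, rose by 2.61 ± 0.65 and 0.53 ± 0.13 (adjusted p = 0.069 and 0.0717). B2m, the light chain of MHC class I, stood at 260.0, 456, 213 and 234 CPM against 139.5, 134, 165 and 176 CPM (0.92 ± 0.20, adjusted p = 0.0429), with replicate 2 the highest of SNI-Saline. Nlrc5, the transactivator of MHC class I genes, Tap1, which pumps peptides into the endoplasmic reticulum, and Psmb8, a subunit of the immunoproteasome, rose by 1.67 ± 0.34, 1.33 ± 0.32 and 0.88 ± 0.23 (adjusted p = 0.0343, 0.0589 and 0.0854). Gbp5 above and H2-K1 were chosen after their values were seen. The heavy chain H2-K1 and the class Ib gene H2-Q4 rose by 0.84 ± 0.22 and 1.69 ± 0.31 (adjusted p = 0.0871 and 0.0195). H2-Q genes are close copies of each other, and Tap1 overlaps Psmb9 on the other strand.

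Many of these calls depended on single mice, as did calls over all tested genes. Genes called higher numbered 321 with all libraries and 80 without SNI-Saline replicate 2. They numbered 95 without Sham-DMI replicate 1, 98 without replicate 3, 127 without both Sham-DMI 2 and 4, and 602 with DESeq2. Counts of these and later lists in those fits are to be read beside these totals. Without SNI-Saline replicate 2, 1 of 18 interferon response genes, none of 10 MHC class I genes, 5 of 16 GTPases and 2 of 16 cytokines were called higher, with medians of 0.61, 0.53, 1.71 and 0.61. Without Sham-DMI replicate 1 the counts were 2, 1, 2 and 4, and without Sham-DMI replicate 3 they were 1, 0, 2 and 1. With the edgeR fit that leaves out both Sham-DMI 2 and 4, 0, 0, 1 and 0 were called, at medians of 0.81, 0.84, 1.93 and 0.75. Mx1, Gbp3, Gbp9, Cxcl10 and H2-Q4 stayed called whichever single library was left out, and without both Sham-DMI 2 and 4 Gbp9 alone of these 5 did.

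**Figure D3:**
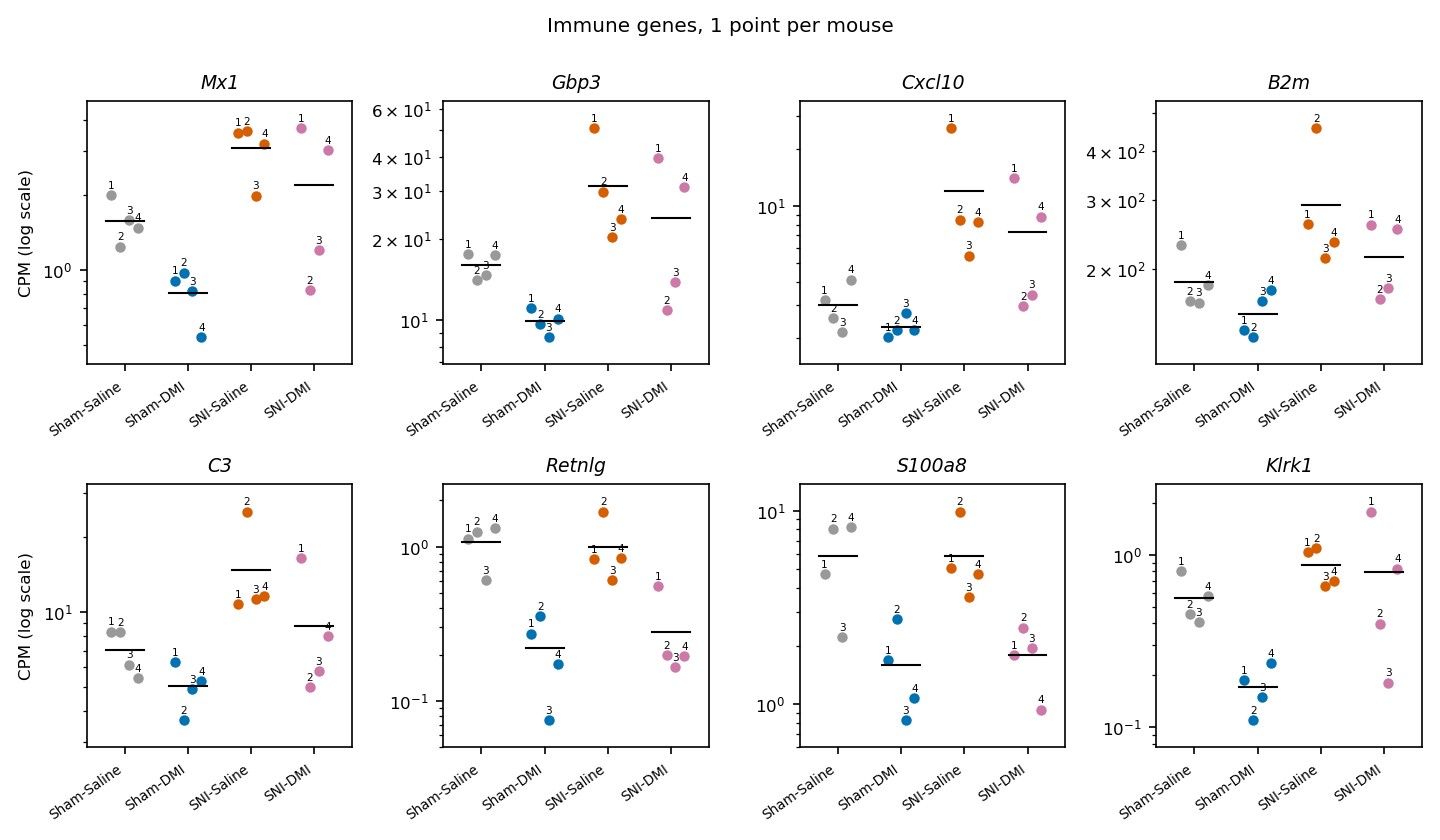
CPM on a log axis of 8 immune genes in the 4 groups, 1 point per mouse with its replicate number, and a bar at the group mean. Mx1, Gbp3, Cxcl10, B2m, C3 and Klrk1 are higher in all SNI-Saline mice than in all Sham-DMI mice, with Gbp3 and Cxcl10 highest in SNI-Saline mouse 1 and B2m and C3 in mouse 2. Retnlg and S100a8 have lower means in both DMI groups than in both saline groups.

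Promoter stretches of 3 of these genes are shown because they hold the core of the interferon-stimulated response element, written GAAANNGAA, in capitals on either strand (RefSeq, GRCm38.p6, 5′ to 3′ on the gene's strand).
Ifit3: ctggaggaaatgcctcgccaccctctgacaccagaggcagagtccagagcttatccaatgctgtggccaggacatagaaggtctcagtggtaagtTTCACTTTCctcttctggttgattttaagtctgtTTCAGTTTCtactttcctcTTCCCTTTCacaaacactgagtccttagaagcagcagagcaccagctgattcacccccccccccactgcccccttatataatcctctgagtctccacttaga
Gbp3: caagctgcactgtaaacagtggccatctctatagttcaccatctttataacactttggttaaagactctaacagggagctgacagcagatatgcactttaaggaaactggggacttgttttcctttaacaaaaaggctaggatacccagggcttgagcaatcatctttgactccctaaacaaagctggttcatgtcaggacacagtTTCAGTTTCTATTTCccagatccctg
B2m: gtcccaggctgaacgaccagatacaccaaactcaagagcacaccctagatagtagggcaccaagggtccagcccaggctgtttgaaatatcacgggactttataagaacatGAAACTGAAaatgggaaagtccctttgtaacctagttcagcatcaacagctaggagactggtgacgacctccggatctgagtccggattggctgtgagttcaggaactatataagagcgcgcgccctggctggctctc
They lie at chr19:34583279-34583528 for Ifit3, chr3:142559794-142560025 for Gbp3 and chr2:122147437-122147685 for B2m, all on the plus strand, and hold 3, 2 and 1 matches. The core was found in 8.56% of all 32851 windows, in 8 of the 12 interferon response genes and 9 of the 10 GTPases that the table holds, in 1 of 8 MHC class I genes, and in 50 of the 241 called higher genes (20.7%, against 9.76% of all genes in the table and 8.85% of the tested ones).

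Macrophage and complement lists held higher genes as well. All 12 macrophage genes were positive (median log2 fold change 0.75), and 3 rose: Lyz2, lysozyme, by 0.85 ± 0.22, C1qb, a chain of complement C1q, by 0.85 ± 0.22, and Cx3cr1, the fractalkine receptor, by 0.62 ± 0.17 (adjusted p = 0.0854, 0.089 and 0.0944). The summed level of the macrophage list ran from 210.0 to 379.0 CPM in SNI-Saline, highest in replicate 2, and from 124.0 to 179.0 CPM in Sham-DMI. Of 13 complement genes, 12 were positive (median 0.69) and 5 rose. C3, on which all complement routes converge, stood at 10.7, 25.3, 11.3 and 11.6 CPM against 6.29, 3.68, 4.92 and 5.28 CPM (1.55 ± 0.34, adjusted p = 0.0409), with replicate 2 far above the other SNI-Saline mice. C1s1, the C1s protease, stood at 10.5, 11.5, 10.7 and 9.56 against 6.13, 5.42, 5.54 and 7.8 CPM (0.76 ± 0.14, adjusted p = 0.019) and kept its call in every fit without 1 library. C4b rose by 0.57 ± 0.14 (adjusted p = 0.0756). Of 7 MHC class II genes, all positive (median 0.78), H2-Aa alone rose, by 0.82 ± 0.22 (adjusted p = 0.0907). Without SNI-Saline replicate 2, 0 of 12 macrophage, 1 of 13 complement and 0 of 7 MHC class II genes were called, with medians of 0.54, 0.54 and 0.51. Without Sham-DMI replicate 1 the counts were 0, 2 and 0, and without Sham-DMI replicate 3 or both Sham-DMI 2 and 4 they were 0, 1 and 0. By DESeq2 on all libraries 10, 8 and 2 were called. In SNI-DMI versus Sham-Saline the medians of these lists were 0.42, 0.18 and 0.31, with 3 of 12, 4 of 13 and 1 of 7 genes negative. There 5, 3 and 1 genes were called higher, and 1 macrophage gene was called lower. Side by side, the medians were 0.549, 0.368 and 0.44 in SNI-Saline and -0.213, -0.203 and -0.285 in Sham-DMI, each against Sham-Saline.

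Lymphocyte and pan-leukocyte genes had positive log2 fold changes at low levels. All 9 tested T and NK cell genes were positive (median 0.90) and 1 rose, Klrk1, the activating receptor NKG2D, at 1.03, 1.09, 0.659 and 0.703 CPM against 0.188, 0.11, 0.15 and 0.236 CPM (2.33 ± 0.53, adjusted p = 0.0479). Its call was lost without SNI-Saline replicate 2 or Sham-DMI replicate 1 or 3. Ptprc, which encodes CD45 on all white blood cells and was chosen after its values were seen, stood at 4.58, 8.6, 5.11 and 4.48 CPM against 2.39, 2.73, 2.85 and 2.9 CPM (1.07 ± 0.23, adjusted p = 0.0434), with 4.18 to 6.99 CPM in Sham-Saline, and lost its call without the same libraries as Klrk1. Red cell genes did not pass (0 of 8 by edgeR, 0 at a nominal p under 0.05, 0 by DESeq2), and their summed level ran from 65.0 to 123.0 CPM in SNI-Saline and from 27.9 to 112.0 CPM in Sham-DMI, where replicate 2 was the highest. All 8 red cell genes were positive here (median log2 fold change 0.60) and all 8 negative in SNI-DMI versus Sham-Saline (median -0.70, 3 called lower), with medians against Sham-Saline of -0.14 in SNI-Saline and -0.68 in Sham-DMI. The summed level of the neutrophil list ran from 21.6 to 63.0 CPM and from 6.87 to 22.5 CPM, highest in replicate 2 of each group, and the part of blood in these results was not tested.

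Among the resident cells of the ganglion, Gfap, the intermediate filament of reactive satellite glia, stood at 4.58, 4.43, 4.8 and 6.49 CPM in SNI-Saline and 1.95, 1.73, 1.6 and 3.03 CPM in Sham-DMI (1.28 ± 0.27, adjusted p = 0.0357). It was the only one of 8 satellite glia genes that rose, its log2 fold change in SNI-DMI versus Sham-Saline was -0.07 ± 0.26, and the call was lost without Sham-DMI replicate 1 or 3. None of 8 myelinating Schwann cell genes was called by edgeR, with 1 at a nominal p under 0.05 and 0 called by DESeq2. Of 44 collagen genes, a list added after seeing the values, 40 were positive (median 0.34) and 7 rose. Of these 44 genes, 26 were positive and 18 negative in SNI-DMI versus Sham-Saline (median 0.0497), with 6 called higher and 2 lower. Against Sham-Saline, the list median was 0.132 in SNI-Saline and -0.248 in Sham-DMI. Col5a3 stood at 289, 349, 292 and 275 CPM against 199.7, 225, 227 and 217 CPM (0.47 ± 0.077, adjusted p = 0.00842), with no overlap and a call in every fit without 1 library. Col5a2, Col18a1, Col27a1 and Col3a1 rose by 0.65 ± 0.13, 0.55 ± 0.11, 0.59 ± 0.12 and 0.56 ± 0.15 (adjusted p = 0.028, 0.0315, 0.0357 and 0.0901). The calls of Col18a1, Col27a1 and Col3a1 were lost without SNI-Saline replicate 2 or Sham-DMI replicate 1. That of Col27a1 was also lost without Sham-DMI replicate 3. That of Col3a1 held in 8 of the 16 fits that left out 1 library. Col5a2 was at 0.25 in SNI-DMI versus Sham-Saline, under the cut-off on the fold change. In SNI-DMI versus Sham-Saline, Col5a3, Col18a1 and Col27a1 were higher by 0.49 ± 0.077, 0.37 ± 0.11 and 0.40 ± 0.12 (adjusted p = 0.00023, 0.0189 and 0.0209), and Col3a1 by 0.11 ± 0.15 (adjusted p = 0.629).

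Neutrophil genes, like the red cell genes above, had opposite signs in the 2 comparisons. All 13 tested genes of this list were positive in SNI-Saline versus Sham-DMI (median 1.48, 3 called) and all 13 were negative in SNI-DMI versus Sham-Saline (median -1.25, 9 called lower). Side by side, the median was -0.0018 in SNI-Saline and -1.51 in Sham-DMI, each against Sham-Saline. Retnlg, a resistin-like protein of neutrophils, stood at 0.833, 1.69, 0.61 and 0.84 CPM in SNI-Saline, 0.273, 0.357, 0.0749 and 0.173 CPM in Sham-DMI, 1.13, 1.26, 0.608 and 1.33 CPM in Sham-Saline and 0.558, 0.199, 0.165 and 0.196 CPM in SNI-DMI. All 8 saline mice lay above all 8 DMI mice. The log2 fold changes were 2.10 ± 0.44 (adjusted p = 0.0368, lost without SNI-Saline replicate 2 or Sham-DMI replicate 3) and -1.96 ± 0.43 (adjusted p = 0.00239). S100a8, a subunit of the alarmin calprotectin, stood at 5.05, 9.89, 3.58 and 4.67 CPM against 1.69, 2.76, 0.824 and 1.07 CPM (1.84 ± 0.43, adjusted p = 0.0522, and -1.70 ± 0.42 in SNI-DMI versus Sham-Saline, adjusted p = 0.0057). Csf3r, the receptor of granulocyte colony-stimulating factor, rose by 1.34 ± 0.30 (adjusted p = 0.0479). Without SNI-Saline replicate 2 none of the 13 was called in SNI-Saline versus Sham-DMI and 11 remained positive (median 0.99), and without Sham-DMI replicate 1 or 3 the calls were 1 and 0. Without both Sham-DMI 2 and 4 none was called, while by DESeq2 on all libraries 7 were called.

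Opposite signs were also seen outside the neutrophil list. The median log2 fold change of the 5 tested B cell genes was 0.26 here and -0.79 in SNI-DMI versus Sham-Saline. Wfdc21, a small secreted protein, held 4 to 35 counts per SNI-Saline library against 0 to 2 per Sham-DMI library, and its call was lost with DESeq2 and without SNI-Saline replicate 2 or Sham-DMI replicate 3. Fgf2, basic fibroblast growth factor, stood at 17.9, 17, 18.7 and 18.5 CPM in SNI-Saline, 12.6, 14, 15 and 14.1 CPM in Sham-DMI, 17.4 to 20.6 CPM in Sham-Saline and 13.9 to 16.4 CPM in SNI-DMI. The saline groups lay above the DMI groups, by 0.37 ± 0.074 (adjusted p = 0.0302) and with -0.32 ± 0.074 in SNI-DMI versus Sham-Saline (adjusted p = 0.00332), and Nudt6 overlaps Fgf2 on the other strand. The call of Fgf2 was lost without Sham-DMI replicate 1. Zfp932, the only one of 339 tested zinc finger genes that was called, differed by 0.36 ± 0.093 (adjusted p = 0.0851) and -0.44 ± 0.093 in SNI-DMI versus Sham-Saline. Side by side against Sham-Saline, Zfp932 was at -0.051 in SNI-Saline and -0.41 in Sham-DMI. Its call held in 4 of the 16 fits that left out 1 library and was lost once trends on GC content and length were removed.

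The 17 lower genes comprised 8 protein-coding genes and 9 noncoding genes and pseudogenes. The log2 fold changes of the protein-coding genes ran from -0.32 (Plcl2) to -0.52 (Depp1), and those of the others from -0.54 (Gm8129) to -2.28 (Gm45682). When 1 library was left out their number ran from 5, without SNI-Saline replicate 2, to 41, without Sham-DMI replicate 4. Spry4, an inhibitor of receptor tyrosine kinase signalling, stood at 23, 21.5, 22.4 and 23.6 CPM in SNI-Saline, 34.2, 29.4, 30.7 and 28 CPM in Sham-DMI and 26.6 to 31.5 CPM in Sham-Saline. The SNI-Saline mice lay below all Sham-DMI and all Sham-Saline mice, with a log2 fold change of -0.43 ± 0.078 (adjusted p = 0.0153), and the call held without any single library. Dusp5, a phosphatase of nuclear ERK, stood at 29, 27, 31.5 and 30.5 CPM against 38.6, 36.7, 33.2 and 39.2 CPM, a log2 fold change of -0.32 ± 0.074 (adjusted p = 0.0506) that lost its call with upper-quartile scaling or GC and length trends removed, or without SNI-Saline replicate 2 or Sham-DMI replicate 1 or 4. Spry4 and Dusp5 were the called members of 12 ERK feedback genes, a list added after seeing the values (median -0.061). Side by side against Sham-Saline, Spry4 was at -0.37 in SNI-Saline and 0.065 in Sham-DMI, and Dusp5 at -0.049 and 0.28. Dusp5 was among the opposite-sign genes, with a log2 fold change of 0.16 ± 0.074 in SNI-DMI versus Sham-Saline. Lzts1, a leucine zipper protein of synapses, Depp1, a FOXO target, Mcc, a scaffold mutated in colorectal cancer, and Plcl2, a phospholipase-like protein, fell by 0.39 ± 0.084, 0.52 ± 0.12, 0.35 ± 0.094 and 0.32 ± 0.088 on the log2 scale (adjusted p = 0.0381, 0.0599, 0.0913 and 0.0979). The call of Lzts1 was lost without SNI-Saline replicate 2, and those of Depp1, Mcc and Plcl2 held in 12, 8 and 5 of the 16 fits that left out 1 library, with an edgeR adjusted p of up to 0.149, 0.212 and 0.2. Plcl2 held its call in 4 of 8 other settings of the analysis, Mcc in 6 and Depp1 in 7. In SNI-DMI versus Sham-Saline the log2 fold changes of Spry4, Lzts1, Depp1, Mcc and Plcl2 were -0.062 ± 0.077, -0.073 ± 0.083, 0.096 ± 0.12, -0.0071 ± 0.093 and -0.093 ± 0.088, and none had a nominal p under 0.05.

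Dpysl2, or CRMP2, which binds tubulin in growing axons, was lower in SNI-Saline than in Sham-DMI and higher in SNI-DMI than in Sham-Saline. It stood at 169, 149, 150.4 and 246 CPM in SNI-Saline, 269.5, 231, 240.2 and 239 CPM in Sham-DMI, 175 to 197 CPM in Sham-Saline and 228 to 267 CPM in SNI-DMI. SNI-Saline replicate 4 lay among the DMI mice and the other 3 lay below the Sham-Saline range. The log2 fold changes were -0.46 ± 0.12 (adjusted p = 0.0803) and 0.43 ± 0.12 (adjusted p = 0.0102). Bhlha9, a transcription factor of limb development, had the same signs (-0.48 ± 0.13, adjusted p = 0.0907, and 0.37 ± 0.13, adjusted p = 0.0359). Side by side against Sham-Saline, Dpysl2 was at -0.063 in SNI-Saline and 0.39 in Sham-DMI, and Bhlha9 at -0.019 and 0.46. Both calls were lost when the 8 libraries were fitted alone, and they held in 9 and 8 of the 16 fits that left out 1 library.

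**Figure D4:**
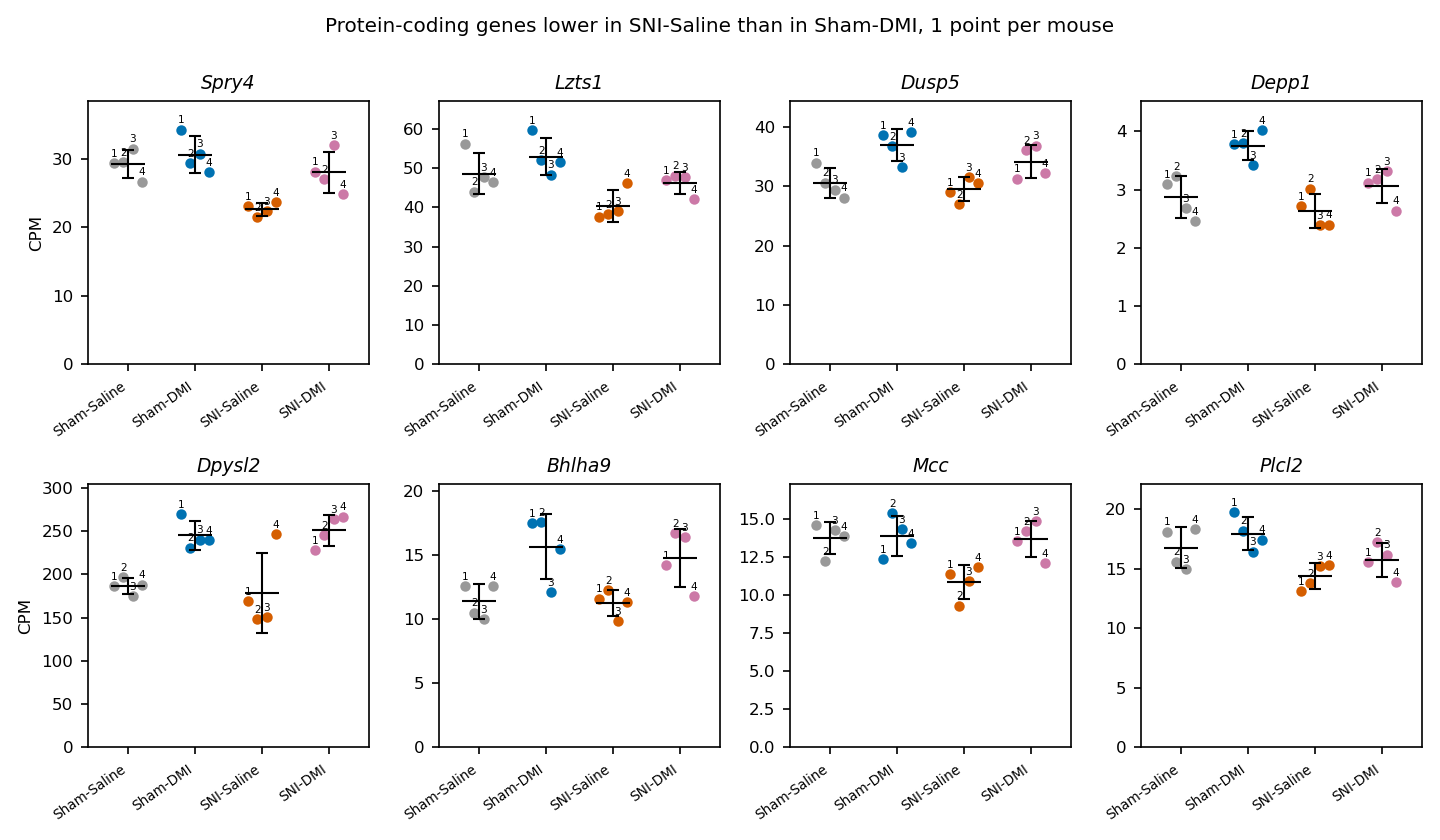
CPM of the 8 protein-coding genes called lower in SNI-Saline than in Sham-DMI, on linear axes from 0, 1 point per mouse with its replicate number. Wide bars mark the group mean and whiskers 1 SD (n = 4 mice). SNI-Saline lies below Sham-DMI without overlap for Spry4, Lzts1, Dusp5, Depp1, Mcc and Plcl2, and 1 SNI-Saline mouse lies high for Dpysl2.

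Complex I genes and most cytosolic ribosomal protein genes had negative log2 fold changes and no calls. All 34 tested complex I genes of the respiratory chain were negative (median log2 fold change -0.11) and none was called by edgeR or DESeq2, with 11 at a nominal p under 0.05. In SNI-DMI versus Sham-Saline all 34 were positive (median 0.35) and 20 were called higher. Of 78 cytosolic ribosomal protein genes, 71 were negative (median -0.077) and none was called by either tool, with 6 at a nominal p under 0.05, against a median of 0.39 and 58 called higher in SNI-DMI versus Sham-Saline. Side by side against Sham-Saline, the medians of both lists were positive for injury (0.22 and 0.24) and for DMI (0.31 and 0.32). Ndufb10, the complex I gene with the smallest p, stood at 114, 116, 99.9 and 112 CPM in SNI-Saline, 143, 118, 125 and 134 CPM in Sham-DMI and 88.2 to 98.5 CPM in Sham-Saline (-0.23 ± 0.063, adjusted p = 0.0979). Actb, beta-actin, had an adjusted p of 0.0388 at a log2 fold change of -0.28 ± 0.059, within the cut-off on the fold change. Zinc finger genes had a median of -0.00032 here and -0.16 in SNI-DMI versus Sham-Saline, with 103 of 339 called lower there.

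Over all tested genes, from the lowest to the highest quartile of exon GC content, the median log2 fold change ran 0.056, -0.00077, -0.027 and -0.036 in SNI-Saline versus Sham-DMI and -0.23, -0.038, 0.073 and 0.14 in SNI-DMI versus Sham-Saline. With trends on GC content and length removed from each library, 394 genes were called in the former, 320 of them among the 338. In the latter 1706 genes were called in place of 3818, with 8 of 34 complex I genes and 24 of 78 ribosomal protein genes called higher and medians of 0.23 and 0.28.

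**Figure D5:**
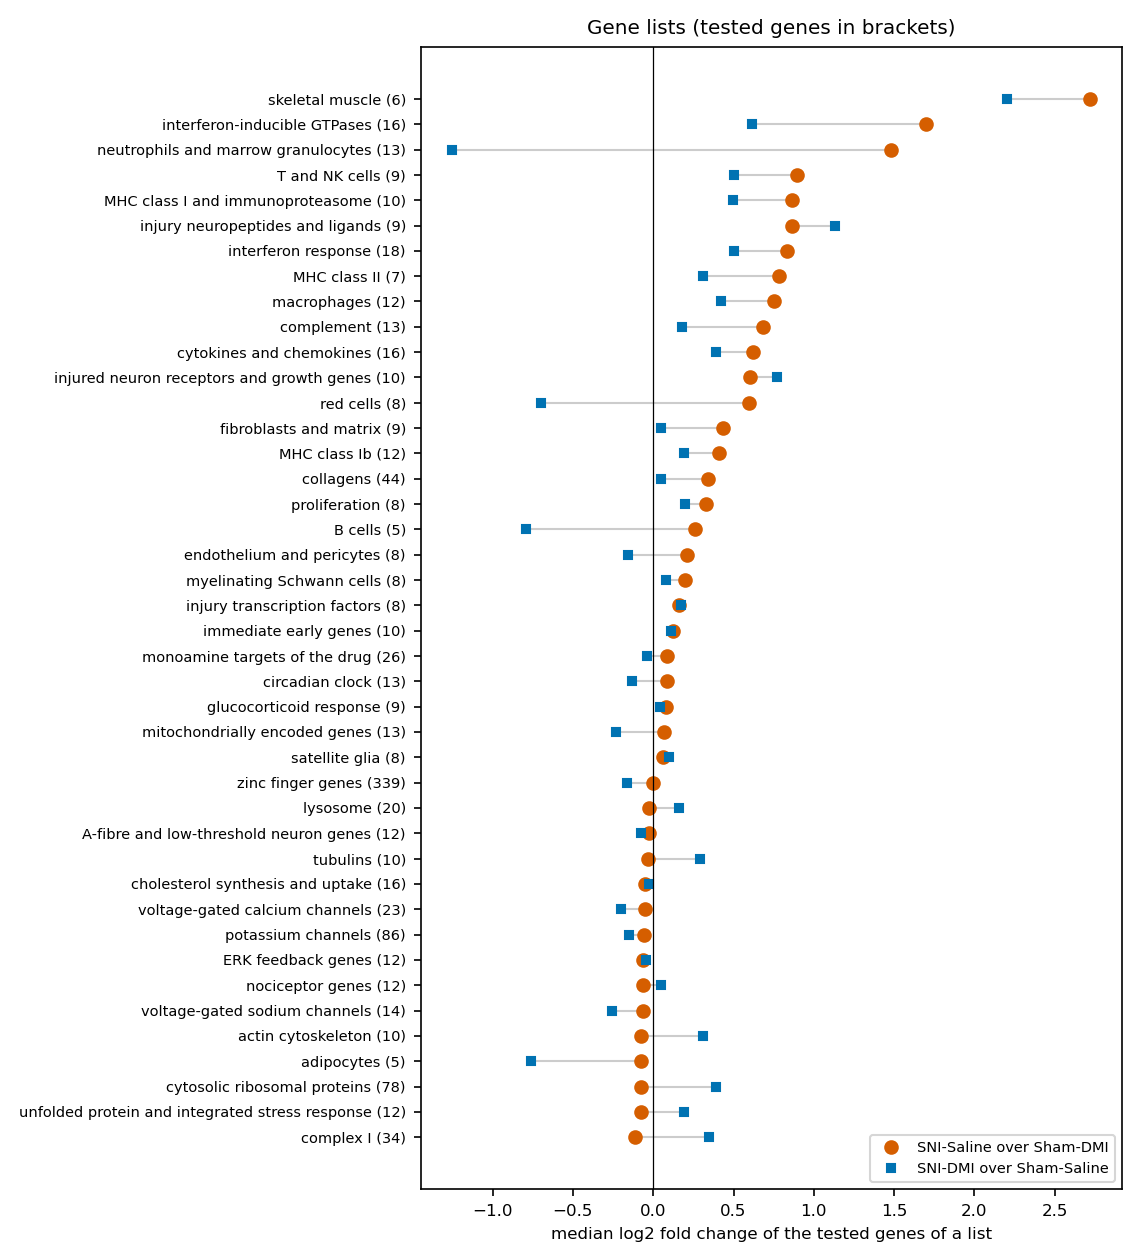
Median log2 fold change of the tested genes of each list with at least 5 of them, for SNI-Saline over Sham-DMI (circles) and for SNI-DMI over Sham-Saline (squares), sorted by the former. Axotomy, interferon, MHC and macrophage lists have both medians above 0, some lists, among them neutrophil, red cell, B cell, vessel and mitochondrially encoded genes, have medians on opposite sides of 0, and complex I and ribosomal protein lists are near 0 for the circles and above it for the squares. The skeletal muscle medians lie beside summed levels of 77.2 CPM in SNI-Saline replicate 2, 275.1 CPM in SNI-DMI replicate 2 and 49.1 CPM in Sham-Saline replicate 1.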

How the data were processed

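RNA of the L3 to L6 DRGs of 16 male mice was sequenced by the authors from a stranded mRNA kit as paired reads of 50 bases. The submitters' processing notes name HISAT2, HTSeq, DESeq2 and mm10 without versions. The strand setting and the annotation release are not given in the sources used here. The deposited files hold raw counts per Ensembl gene for each library, and 5 lines of unassigned reads per file were left out of all totals. Reads counted on genes were 79.56 to 81.17% of each file's total. Groups and replicate numbers came from the sample titles. No source says that same-numbered mice were paired.

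Genes that passed filterByExpr of edgeR 4.0.16 (R 4.3.3, limma 3.58.1) were fitted by the quasi-likelihood method with TMM scaling and 1 coefficient per group over all 16 libraries. Genes were called at a Benjamini-Hochberg adjusted p under 0.1 if they differed by 0.32 or more on the log2 scale. SNI-Saline minus Sham-DMI was the comparison, and SNI-DMI minus Sham-Saline was set beside it. Alternatives used DESeq2 1.42.0, sva 3.50.0, mgcv 1.9.3 for trends on GC content and exon length, other filters and scaling, a replicate block, the 8 libraries alone, and each library left out in turn. The steps were tested on simulated data. P-values of the main fit set a difference between groups against the spread between mice within groups, estimated over all 16 libraries.

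The comparison, the 39 gene lists and the rules were chosen with earlier results of these data known, and 4 further lists and 2 pairs of left-out libraries were chosen after the values of this comparison were seen. Genes named were up to 12 higher and up to 12 lower called protein-coding genes with the smallest p and no overlap, up to 6 for each pair of signs by smallest p in SNI-DMI versus Sham-Saline, and in each list the first gene and up to 4 called genes, or 2 where none was called. The text describes a selection of them, and says where a gene was added. The result of 1 gene is not reported here. Promoters from 250 bases before to 50 after a start came from RefSeq (GRCm38.p6).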

Additional observations from a re-analysis of the deposited data

Results flagged for a closer look

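Within each group of 4 mice, the gap of the highest or lowest mouse to its neighbour, divided by the range of the group, was compared with Dixon's critical value at the 95% level. Of 250 sets of 4 values checked, 12 exceeded it. Chance alone exceeds it in about 1 of 20 sets, so the number of flags was about that of chance. SNI-Saline replicate 2 was flagged as highest of its group for Csf3r at 4.84 CPM and C3 at 25.3 CPM, and in mean log2 CPM of the T and NK cell list at -0.228, the red cell list at 2.54 and the MHC class Ib list at 2.42. SNI-Saline replicate 1 was flagged as lowest of its group for Slc6a4, at 0.562 CPM, and SNI-Saline replicate 4 for Fgf3, at 1.86 CPM. Sham-DMI replicate 2 was flagged as lowest of its group for Isg15, at 4.34 CPM. In mean log2 CPM, Sham-DMI replicate 1 was lowest for the circadian clock list at 4.44, Sham-DMI replicate 3 highest for tubulins at 8.62, SNI-Saline replicate 3 highest for voltage-gated calcium channels at 4.08 and SNI-Saline replicate 4 highest for ERK feedback genes at 4.40.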

How the results depend on the processing

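The 338 calls became 531 with no filter on low counts, 609 with 1 surrogate variable and 681 with DESeq2, and ran from 85 to 434 when 1 library was left out. Without both Sham-DMI 2 and 4 there were 133, and without both SNI-Saline 2 and 4 there were 57, the latter 2 settings chosen after seeing the data. The 17 lower genes became 54 with no cut-off on the fold change, 34 with no filter, 66 with 1 surrogate variable, 8 with the 8 libraries alone and 79 with DESeq2, and ran from 5 to 41 when 1 library was left out. The 3818 calls of SNI-DMI versus Sham-Saline became 7655 with no cut-off on the fold change and 1706 with GC content and length trends removed. The 104 same-sign genes became 163 with no filter, ran from 40 to 160 when 1 library was left out, and were 49 and 30 without the 2 pairs. The 33 opposite-sign genes became 63 with no cut-off on the fold change, 65 with no filter, 84 with 1 surrogate variable, 17 with the 8 libraries alone and 113 with DESeq2, ran from 5 to 69 when 1 library was left out, and were 6 without SNI-Saline 2 and 4. The cause of these changes was not tested, other than that fewer mice and other numbers of genes were tested. Single genes turned sign in 2 cases, neither called: Gal was at -0.079 without SNI-Saline replicate 2 and Slc6a2 at -0.26 without SNI-Saline replicate 3, and over all fits that left out 1 library they ran from -0.079 to 0.23 and from -0.26 to 0.54 on the log2 scale.

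Deviations from the group mean of same-numbered SNI-Saline and Sham-DMI mice correlated at 0.041 to 0.11, within a range of -0.25 to 0.16 over all pairs. Of these mice, 2 of 4 correlated best with their own number. For SNI-DMI and Sham-Saline the values were -0.039 to 0.073, within -0.16 to 0.11, and 1 of 4. So few values cannot settle whether same-numbered mice were paired. With a replicate block 300 genes were called, 269 of them among the 338, with 91 same-sign and 28 opposite-sign genes, and 3815 in SNI-DMI versus Sham-Saline. Depth limits statements on genes under about 1 CPM, 70 of the 338, and on lists whose called members hold few counts.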

Other observations

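In the lists not described above, a few single genes rose in SNI-Saline over Sham-DMI. Top2a, a topoisomerase of dividing cells, stood at 1.83, 3.42, 2.68 and 1.91 CPM against 0.82, 1.18, 0.275 and 0.457 CPM (log2 fold change 1.80 ± 0.41, adjusted p = 0.0479 by edgeR), and was 1 of 8 proliferation genes that rose (median 0.33). Tubb6, a beta-tubulin that cut neurons raise, stood at 35.7, 32.5, 30.8 and 32.1 against 23.2, 24, 25.3 and 21.9 CPM (0.47 ± 0.098, adjusted p = 0.0343 by edgeR). It was 1 of 10 tubulins that rose, 8 of which were negative (median -0.034), and was higher by 0.64 ± 0.098 in SNI-DMI versus Sham-Saline. Gpnmb, a glycoprotein of phagocytes, was 1 of 20 lysosomal genes that rose (0.64 ± 0.16, adjusted p = 0.0728 by edgeR, list median -0.024), and Mt2, a metallothionein, was 1 of 9 glucocorticoid response genes that rose (0.42 ± 0.11, adjusted p = 0.0901 by edgeR, list median 0.082). In both comparisons these 4 genes had positive log2 fold changes. The calls of all 4 were lost without SNI-Saline replicate 2 or Sham-DMI replicate 1, those of Top2a, Gpnmb and Mt2 also without Sham-DMI replicate 3. Those of Gpnmb and Mt2 held in 11 and 5 of the 16 fits that left out 1 library and were lost with the 8 libraries alone, that of Mt2 also with a replicate block.

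The clock genes (13 tested, median 0.083), vessel genes (8, median 0.21), fat cell genes (5, median -0.077), immediate early genes (10, median 0.12), cholesterol genes (16, median -0.052), stress response genes (12, median -0.079), mitochondrially encoded genes (13, median 0.07), actin cytoskeleton genes (10, median -0.076), skeletal muscle genes (6, median 2.72) and spinal cord genes (3, median 0.70) held no call by edgeR. At a nominal p under 0.05 there were 6, 1, 0, 2, 3, 2, 1, 2, 0 and 1 of them, and DESeq2 called 2, 0, 0, 0, 0, 0, 0, 0, 0 and 0. Of 9 fibroblast genes 1 rose (median 0.43), and of 12 MHC class Ib genes, a list added after seeing the values, 4 rose (median 0.41).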
